A study of Mus musculus with 12 samples.

Results

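Epithelial identity is held by a small set of regulators, and 10 of them were followed here while mouse fibroblasts were converted to pluripotent cells. They were chosen by name, as known regulators of the epithelial state, but with earlier results of these data known. The counts below are therefore descriptions and no independent evidence. All 10 were found among the 24098 genes of the deposited table. They comprise the grainyhead-like transcription factors Grhl2 and Grhl3, the zinc finger repressors Ovol1 and Ovol2, the ETS factors Elf3 and Ehf, the splicing factors Esrp1 and Esrp2, the vesicle GTPase Rab25 and the membrane protease inhibitor Spint1.

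Fibroblasts are mesenchymal cells, whereas pluripotent stem cells in culture form compact colonies joined by E-cadherin, so conversion includes a mesenchymal-to-epithelial transition. Grainyhead-like factors activate junction genes, and Ovo-like factors repress mesenchymal regulators such as Zeb1, which in turn represses epithelial genes through E-box elements. ESRP proteins impose the epithelial pattern of alternative splicing, while Rab25 recycles membrane proteins to the cell surface and Spint1 restrains surface proteases such as matriptase.

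The mRNA-Seq libraries came from 12 conditions, with 1 library for each. Mouse embryonic fibroblasts (MEFs), whose Oct4 gene carries a GFP reporter, were infected with pMXs retroviruses for Sox2, Klf4, c-Myc and Oct4 (together OSKM) and kept in FF medium, a serum replacement medium with LIF, bFGF, ascorbic acid and CHIR99021. D0 denotes the MEFs of day 0, labelled WT, and D3 the unsorted cells of day 3. On days 6 and 9 an antibody to Thy-1, a fibroblast surface antigen, was used to part D6T- and D9T- (Thy-1-) from D6T+ and D9T+ (Thy-1+). On days 12 and 16 SSEA-1, a carbohydrate antigen of mouse pluripotent cells, served instead and gave D12S+ and D16S+ (SSEA-1+) and D12S- and D16S- (SSEA-1-). The study treats the Thy-1- and SSEA-1+ fractions as its successful route and the others as unsuccessful. The end points were established iPSCs and mouse embryonic stem cells (mESCs) of the ES-D3 line. The labels give FF medium for both, whereas the study's methods give other media for these lines. Since the sorting marker was switched between days 9 and 12, a step from day 9 to day 12 within a route spans that switch.

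Levels are given in FPKM, fragment counts scaled to transcript length and to the size of the library, as deposited. Without replicates no difference below carries a test, an SD or a p-value. A difference is called 2-fold when log2(FPKM + 1) differs by at least 1, a scale that understates the change of genes near 0, and each count of regulators is set beside the share of the 14178 genes with at least 1 FPKM in some library that pass the same rule. All 10 regulators were among those 14178. The table also gives a modelled interval for each FPKM, which holds no biological variation, and intervals are called apart when one lies wholly above the other. In these bulk libraries a smaller share of expressing cells and less RNA per cell cannot be told apart. Total FPKM ranged from 484968 to 648264, and the depth relative to D0, read from the steps of the lowest values, ranged from 0.968 to 1.56. The 8 fibroblast markers summed to 11877 FPKM in D0 and the 8 pluripotency markers to 2.28 FPKM, against 462 and 3638 FPKM in iPSCs, so these libraries matched their labels.

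In D0, 9 of the 10 regulators lay below 1 FPKM, and by the late fractions nearly all were expressed. The single one above 1 FPKM in D0 was Spint1, at 1.34 FPKM. The number above 1 FPKM was 2 in D3, 6 in D6T-, 8 in D9T-, 10 in D12S+ and 9 in D16S+. In the other fractions it was 4 in D6T+, 7 in D9T+, 9 in D12S- and 10 in D16S-, and it was 8 in both iPSCs and mESCs. Over all 24098 genes the share above 1 FPKM moved little, from 46.4% in D0 to 49.5% in D12S+.

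**Figure D1:**
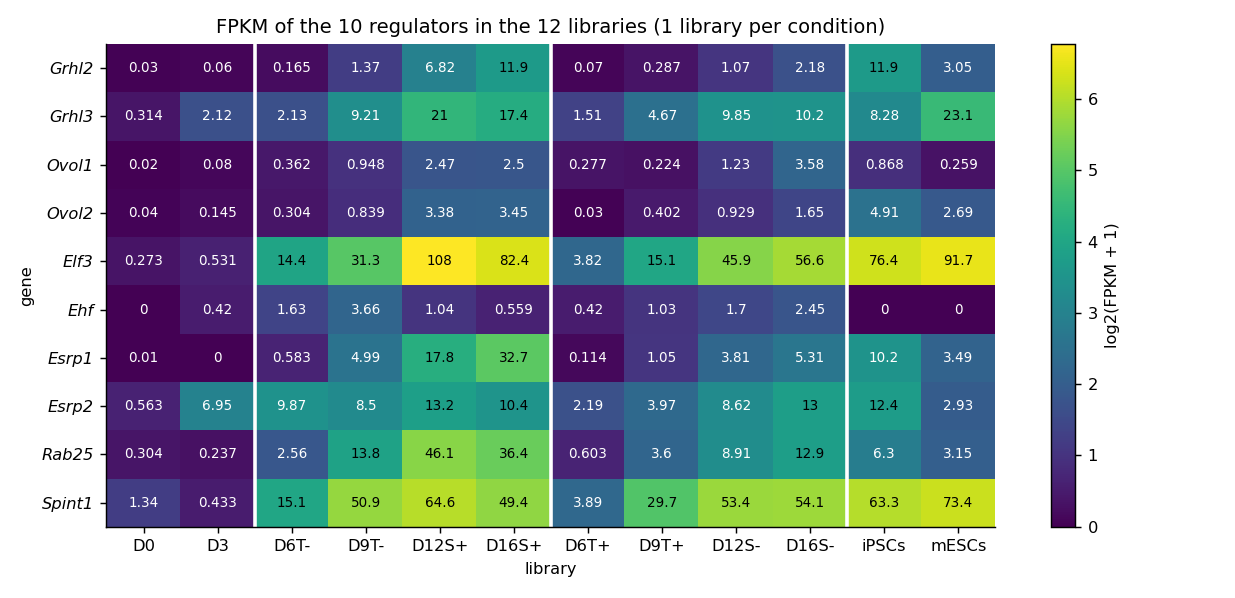
Heat map of the 10 regulators (rows) in the 12 libraries (columns, 1 library each), with colour as log2(FPKM + 1) and the FPKM printed in each cell. White lines part the unsorted libraries, the Thy-1- and SSEA-1+ fractions, the Thy-1+ and SSEA-1- fractions and the end points. Low values fill the D0 and D3 columns, and Elf3 and Spint1 reach the highest levels from D9T- onwards.

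To see the order in which the regulators came up, each was dated by the first library from which it stayed above 1 FPKM, going from D0 and D3 through the Thy-1- and SSEA-1+ fractions to iPSCs. Grhl3 and Esrp2 came first, in D3. Elf3, Rab25 and Spint1 followed in D6T-, Grhl2 and Esrp1 in D9T-, and Ovol2 in D12S+. Ovol1 and Ehf met no such date, because Ovol1 stood at 0.868 FPKM in iPSCs and Ehf was listed at 0 there. The order depends on the level chosen. At 5 FPKM Esrp2 was still dated to D3, but Grhl3 moved to D9T-, after Elf3 and Spint1 in D6T-. Rab25 was then dated to D9T-, Grhl2 and Esrp1 to D12S+, and Ovol2 met no date. At D3 only Grhl3 and Esrp2 were at least 2-fold above D0, while 5.76% of all kept genes were. In D9T- 8 of the 10 were at least 2-fold above D0, beside 12.6% of all kept genes.

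**Figure D2:**
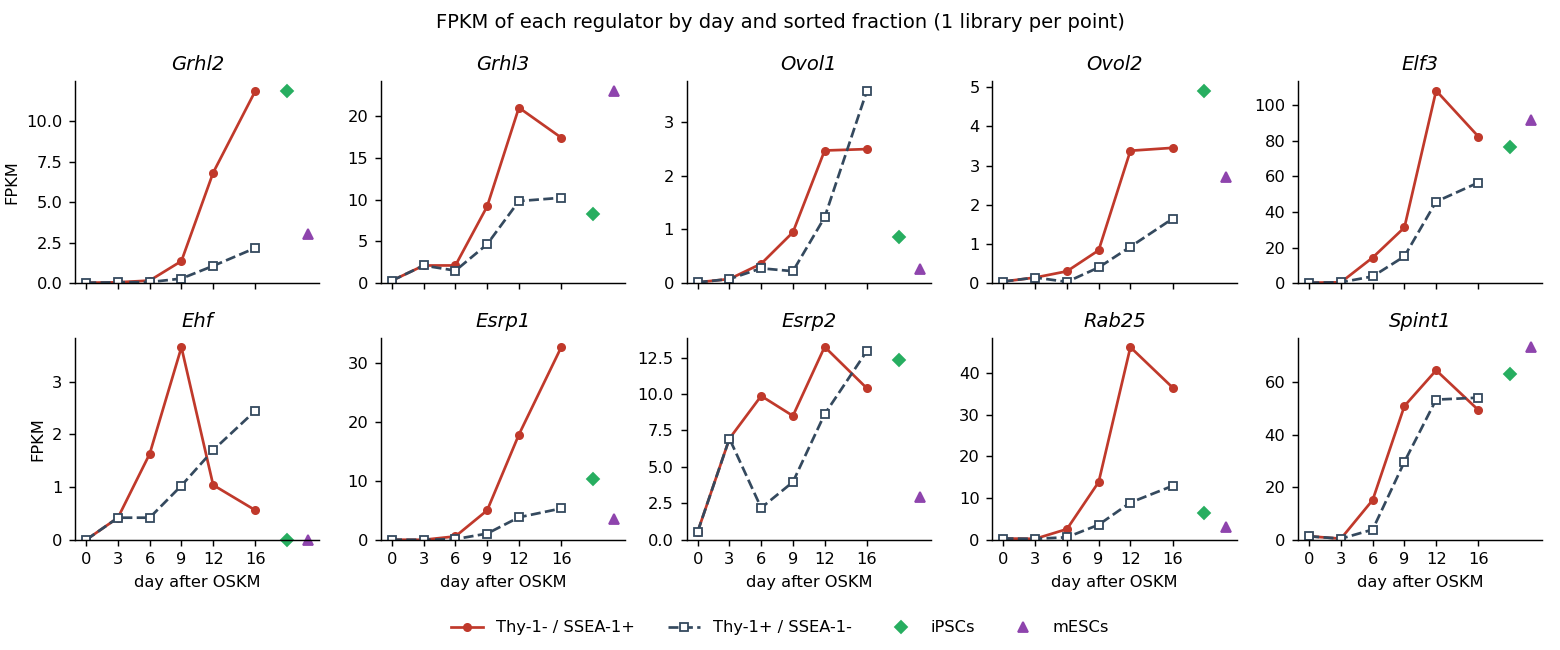
FPKM of each regulator (y axis, linear, from 0) against day after OSKM (x axis), 1 library per point. Red circles join D0, D3 and the Thy-1- and SSEA-1+ fractions, dark squares join D0, D3 and the Thy-1+ and SSEA-1- fractions, and the green diamond and purple triangle at the right are iPSCs and mESCs. The lines of Grhl2, Esrp1 and Rab25 part widely by day 16, and those of Spint1, Esrp2, Ehf and Ovol1 cross.

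The grainyhead-like factors bind a shared DNA element and hold epithelial junctions together. Grhl2 (chromosome 15, 37162791 to 37293324, plus strand, mm9) was at 0.029 FPKM in D0, 0.058 in D3, 0.165 in D6T-, 1.37 in D9T-, 6.82 in D12S+ and 11.9 in D16S+. Its FPKM was 0.068 in D6T+, 0.287 in D9T+, 1.07 in D12S- and 2.18 in D16S-, and 11.9 in iPSCs and 3.05 in mESCs. Grhl2 was thus highest in D16S+ and iPSCs, at nearly equal levels, and lower in mESCs. Its interval in D16S+, from 0.156 to 23.6 FPKM, lay wholly above that of D0, which ended at 0.11 FPKM.

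Grhl3, known for epidermal barrier formation and neural tube closure, lies on chromosome 4 (135097803 to 135129545, minus strand). Along the Thy-1- and SSEA-1+ route it was at 0.314 FPKM in D0, 2.12 in D3, 2.13 in D6T-, 9.21 in D9T-, 21.04 in D12S+ and 17.4 in D16S+. Elsewhere it stood at 1.51 FPKM in D6T+, 4.67 in D9T+, 9.85 in D12S-, 10.2 in D16S-, 8.28 in iPSCs and 23.1 in mESCs. Grhl3 was therefore highest in mESCs, where Grhl2 was low. At the level of 1 FPKM it preceded Grhl2 by 2 collection points of the route. At 5 FPKM Grhl3 was dated to D9T- and Grhl2 to D12S+.

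The third family member, Grhl1, was at 0.016 FPKM in D0, 4.13 in D6T-, 6.80 in D9T-, 6.35 in D16S+, 7.21 in D16S- and 1.63 in mESCs. Of the summed FPKM of the family, Grhl3 made up 73.2% in D3, Grhl1 64.3% in D6T- and Grhl3 64.2% in D12S+. Grhl2 held 48.6% of the sum in iPSCs but 11.0% in mESCs, where Grhl3 held 83.1%. The leading paralog was thus a different one in D6T-, iPSCs and mESCs.

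The Ovo-like factors, which repress Zeb1 and other mesenchymal regulators in epithelia, were among the less abundant regulators. Ovol1 (chromosome 19, 5549137 to 5560575, minus strand) was at 0.017 FPKM in D0, 0.078 in D3, 0.362 in D6T-, 0.948 in D9T-, 2.47 in D12S+ and 2.50 in D16S+. Its values were 0.277 FPKM in D6T+, 0.224 in D9T+, 1.23 in D12S-, 3.58 in D16S-, 0.868 in iPSCs and 0.259 in mESCs. Ovol1 was highest in the SSEA-1- fraction of day 16 and low in both pluripotent lines.

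Ovol2 (chromosome 2, 144130911 to 144157882, minus strand) was at 0.043 FPKM in D0, 0.145 in D3, 0.304 in D6T-, 0.839 in D9T-, 3.38 in D12S+ and 3.45 in D16S+. In the other libraries it was at 0.034 FPKM in D6T+, 0.402 in D9T+, 0.929 in D12S-, 1.65 in D16S-, 4.91 in iPSCs and 2.69 in mESCs. The balance of this pair turned between the day 16 fractions, since Ovol1 made up 67.9% of the family's summed FPKM in D16S- and 41.2% in D16S+. Ovol2 made up 83.7% of it in iPSCs and 91.2% in mESCs, while Ovol3 never passed 0.206 FPKM.

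Elf3 and Ehf are epithelium-specific ETS factors that act in glandular and surface epithelia. Elf3 (chromosome 1, 137150151 to 137155049, minus strand) was at 0.273 FPKM in D0, 0.531 in D3, 14.4 in D6T-, 31.3 in D9T-, 108 in D12S+ and 82.4 in D16S+. It was at 3.82 FPKM in D6T+, 15.1 in D9T+, 45.9 in D12S-, 56.6 in D16S-, 76.4 in iPSCs and 91.7 in mESCs. With Spint1 it was one of the 2 most abundant regulators in every sorted fraction and both end points, and its difference from D0 to D16S+ was 6.03 on the log2(FPKM + 1) scale, against 5.06 for Esrp1. With a pseudocount of 0.1 their order was turned, at 7.79 for Elf3 and 8.19 for Esrp1.

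Ehf (chromosome 2, 103103590 to 103143435, minus strand) had the opposite course late in the series. It was listed at 0 in D0 and stood at 0.42 FPKM in D3, 1.63 in D6T-, 3.66 in D9T-, 1.04 in D12S+ and 0.559 in D16S+, and was listed at 0 in iPSCs and mESCs. In the other fractions it was at 0.42 FPKM in D6T+, 1.03 in D9T+, 1.70 in D12S- and 2.45 in D16S-. Ehf was highest in D9T-, an intermediate stage. From day 12 onwards, after the sorting marker was switched, the order of its fractions was turned. The related Elf5, a factor of trophoblast and mammary epithelium, passed 1 FPKM only in D16S-, at 1.11 FPKM.

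**Figure D3:**
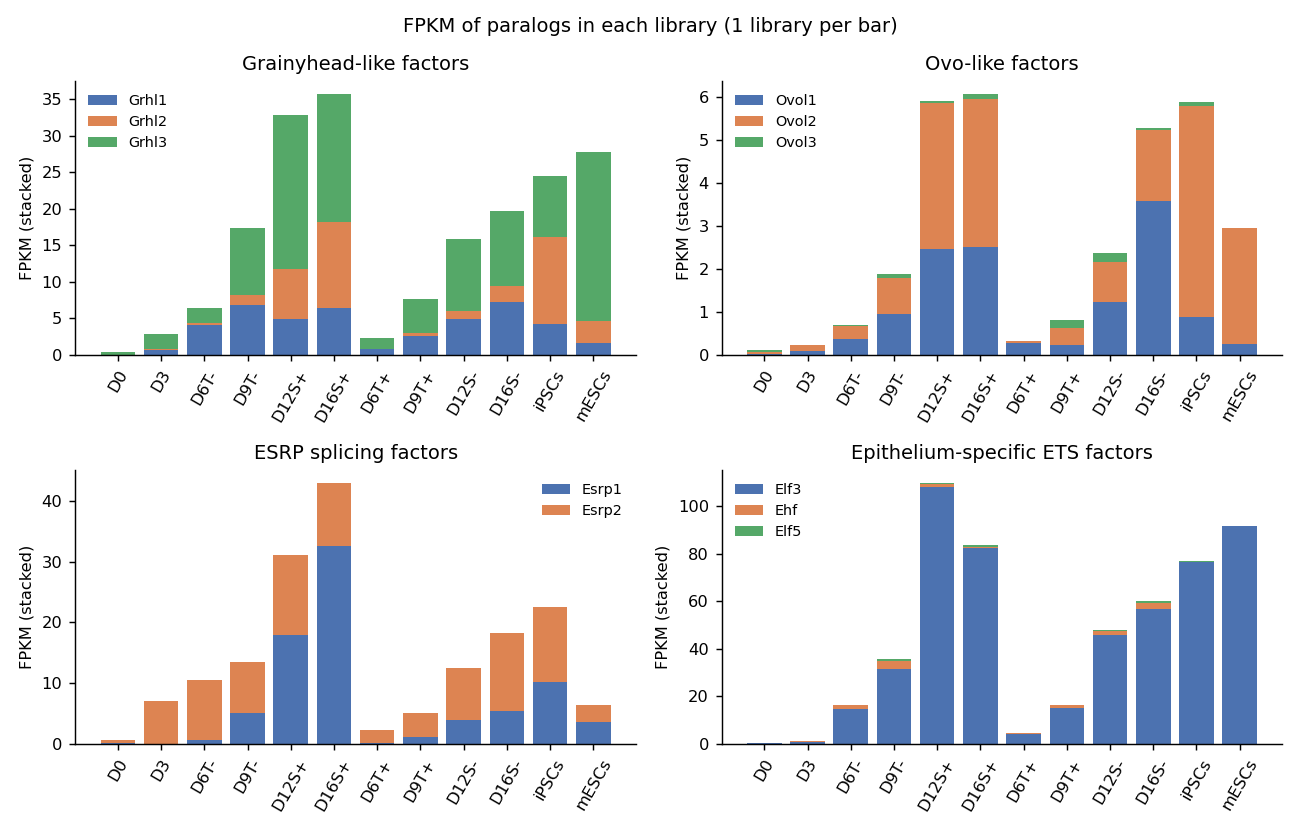
FPKM of paralogs stacked in each of the 12 libraries (x axis, 1 library per bar, y axis from 0 and different in each panel) for the grainyhead-like, Ovo-like, ESRP and epithelium-specific ETS families. Esrp2 leads in early libraries and Esrp1 in D12S+ and D16S+, and Elf3 makes up nearly the whole ETS bar from D12S+ onwards.

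The ESRP proteins bind transcripts of genes such as Fgfr2 and Cd44 and favour their epithelial exons. Esrp1 (chromosome 4, 11259080 to 11313930, minus strand) was at 0.012 FPKM in D0, listed at 0 in D3, and at 0.583 FPKM in D6T-, 4.99 in D9T-, 17.8 in D12S+ and 32.7 in D16S+. It was at 0.114 FPKM in D6T+, 1.05 in D9T+, 3.81 in D12S- and 5.31 in D16S-, and at 10.2 in iPSCs and 3.49 in mESCs. Esrp1 thus peaked in the late SSEA-1+ cells, and its interval in D16S+, from 1.08 to 64.2 FPKM, lay wholly above that of D0.

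Esrp2 (chromosome 8, 108654219 to 108660874, minus strand) was at 0.563 FPKM in D0, 6.95 in D3, 9.87 in D6T-, 8.50 in D9T-, 13.2 in D12S+ and 10.4 in D16S+. It stood at 2.19 FPKM in D6T+, 3.97 in D9T+, 8.62 in D12S-, 12.96 in D16S-, 12.4 in iPSCs and 2.93 in mESCs. From D3 onwards Esrp2 stayed between 6.95 and 13.2 FPKM along the Thy-1- and SSEA-1+ route, whereas D6T+ and D9T+ were below D3. Esrp2 supplied 94.4% of the pair's FPKM in D6T- and 24.1% in D16S+, but 70.9% in D16S-, so Esrp1 led in the SSEA-1+ and Esrp2 in the SSEA-1- cells of day 16. The Esrp2 locus of the table overlaps 1810019D21Rik, which was between 0.263 FPKM in D0 and 2.17 FPKM in D12S+, and the assignment of shared reads is uncertain.

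Other splicing regulators linked to the epithelial-mesenchymal switch did not share this course as a list. From D0 to D16S+ 1 of these 10 genes was at least 2-fold higher, Rbm47 (2.87 to 11.7 FPKM), and 1 was at least 2-fold lower, Celf2 (2.16 to 0.535 FPKM). The median difference of the list was 0.32 on the log2 scale, against 3.73 for the 10 regulators and 0.05 over all kept genes.

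Rab25, a Rab11-family GTPase of polarised epithelia, lies on chromosome 3 (88345951 to 88352222, minus strand). It was at 0.304 FPKM in D0, 0.237 in D3, 2.56 in D6T-, 13.8 in D9T-, 46.1 in D12S+ and 36.4 in D16S+. The remaining values were 0.603 FPKM in D6T+, 3.60 in D9T+, 8.91 in D12S-, 12.9 in D16S-, 6.30 in iPSCs and 3.15 in mESCs. Rab25 was highest in late SSEA-1+ cells and 7.32 times as high in D12S+ as in iPSCs, a larger excess than for any other regulator with a value in iPSCs. The broadly expressed relative Rab11a was at 17.1 FPKM in D0 and 8.36 in D16S+.

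Spint1 (chromosome 2, 119063098 to 119075263, plus strand) was at 1.34 FPKM in D0, 0.433 in D3, 15.1 in D6T-, 50.9 in D9T-, 64.6 in D12S+ and 49.4 in D16S+. It was at 3.89 FPKM in D6T+, 29.7 in D9T+, 53.4 in D12S-, 54.1 in D16S-, 63.3 in iPSCs and 73.4 in mESCs. From D12S+ and D12S- onwards, all libraries lay between 49.4 and 73.4 FPKM, and neighbouring intervals overlapped.

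The partners of Spint1 were of a like course. Spint2, a second inhibitor of the same proteases, was at 2.89 FPKM in D0, 221 in D16S+, 167 in D16S- and 241 in iPSCs. St14, which encodes matriptase, was at 0.686 FPKM in D0, 52.4 in D16S+ and 43.5 in D16S-, and Prss8, which encodes prostasin, at 0.107, 33.1 and 27.05 FPKM. Of the 10 paralogs and partners of the regulators, of which 8 were among the kept genes, 5 were at least 2-fold higher in D16S+ than in D0 and none was 2-fold lower, where 20.0% of kept genes were higher and 20.9% lower.

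Of the 5 regulators with a promoter in the RefSeq table used here (Elf3, Grhl3, Ovol2, Rab25 and Spint1), Rab25, Grhl3 and Elf3 are shown because they hold the E-box to which Zeb and Snail repressors bind. Each window runs from 250 bases before to 50 bases after the RefSeq start, on the gene's strand of GRCm38.p6. Capitals mark the E-box CACCTG, which reads as CAGGTG on the other strand, and, in Rab25, the grainyhead-like element AACCNGTT (AACNGGTT on the other strand), here AACCTGTT. The windows are chr3:88548230-88548529, minus strand, for Rab25, chr4:135573583-135573882, minus strand, for Grhl3 and chr1:135258423-135258722, minus strand, for Elf3.
Rab25: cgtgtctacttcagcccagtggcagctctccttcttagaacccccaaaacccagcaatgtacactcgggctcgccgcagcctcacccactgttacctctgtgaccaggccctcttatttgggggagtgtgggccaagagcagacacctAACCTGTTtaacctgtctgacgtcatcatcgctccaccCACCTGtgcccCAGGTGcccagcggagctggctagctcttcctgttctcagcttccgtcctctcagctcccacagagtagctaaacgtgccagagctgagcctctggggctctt
Grhl3: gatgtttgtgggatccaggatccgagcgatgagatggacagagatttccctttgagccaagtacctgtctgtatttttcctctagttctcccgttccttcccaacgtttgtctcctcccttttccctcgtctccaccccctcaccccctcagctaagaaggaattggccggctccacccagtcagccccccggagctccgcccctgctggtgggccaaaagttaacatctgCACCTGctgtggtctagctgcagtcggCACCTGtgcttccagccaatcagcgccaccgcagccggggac
Elf3: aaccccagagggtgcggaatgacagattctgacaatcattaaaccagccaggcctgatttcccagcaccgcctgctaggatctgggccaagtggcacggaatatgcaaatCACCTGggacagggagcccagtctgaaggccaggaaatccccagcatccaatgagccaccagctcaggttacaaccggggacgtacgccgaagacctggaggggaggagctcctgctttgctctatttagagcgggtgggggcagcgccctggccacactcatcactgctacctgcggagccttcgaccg

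The Rab25 window held 2 E-boxes, at bases -64 to -59 and -53 to -48 from the start, and 1 grainyhead-like element at -102 to -95. Grhl3 held 2 E-boxes, at -19 to -14 and at 8 to 13, and Elf3 held 1, at -140 to -135. No matches overlapped one another. Among all 32851 promoters of the table, 20.2% held an E-box, 2.88% held 2 or more and 2.09% held the grainyhead-like element. Ovol2 and Spint1 held neither sequence in this window. A match describes letters only, since binding was not measured in these libraries.

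From D0 to D16S+, 9 of the 10 regulators were at least 2-fold higher, beside 20.0% of all kept genes, and the exception was Ehf at 0.64 on the log2 scale. The intervals were apart for 2 regulators, Grhl2 and Esrp1, beside 0.557% of kept genes. From D0 to D16S- all 10 were at least 2-fold higher, beside 12.8% of kept genes, with differences from 1.34 for Ovol2 to 5.50 for Elf3. Intervals were apart there for 1 regulator, Elf3, beside 0.346%. The regulators were therefore above the fibroblast level at the end of both routes, and the median difference was 3.73 for D16S+ and 2.87 for D16S-, against 0.05 and -0.00 over all kept genes.

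From D0 to iPSCs 8 of the 10 regulators were at least 2-fold higher, beside 18.7% of all kept genes, and the other two were Ovol1 at 0.88 and Ehf at 0. Grhl2 and Elf3 had intervals apart, beside 0.466% of kept genes. These 3 comparisons share the D0 library. When every library was scaled to the same total FPKM, the median over all kept genes moved by 0.32 from D0 to D16S+, by 0.20 to D16S- and by 0.17 to iPSCs, against regulator medians of 3.73, 2.87 and 2.96. From D16S+ to iPSCs it moved by -0.13, against a regulator median of -0.37. Of the kept genes past 2-fold, the share that was higher moved with this scaling from 48.9% to 65.6% for D16S+ and from 52.9% to 68.4% for D16S-.

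How the regulators were divided between the sorted fractions of a day was examined next. On day 6 all 10 were higher in D6T- than in D6T+, with a median difference of 0.70 on the log2 scale against 0.00 over all kept genes. Esrp2 (1.77), Spint1 (1.72), Elf3 (1.68) and Rab25 (1.15) were at least 2-fold higher, beside 2.93% of kept genes. The 2 grainyhead-like factors and the Ovo-like factors differed by 0.33 or less on that day. For Ovol2, at 0.304 FPKM in D6T- and 0.034 in D6T+, this rests on the added 1 FPKM. With a pseudocount of 0.1 Ovol2 differed by 1.59, Grhl2 by 0.66, Grhl3 by 0.47 and Ovol1 by 0.29.

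On day 9 all 10 were again higher in D9T-, with a median of 0.91 against 0.02. Rab25 (1.69), Esrp1 (1.54), Ehf (1.20) and Elf3 (1.01) passed 2-fold, beside 1.81% of kept genes. With every library at the same total, the share of kept genes past 2-fold that was higher in D9T- moved from 21.9% to 32.6%.

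On day 12 the median was 1.10, against -0.01 over kept genes. The order of the days depends on the pseudocount, since with 0.1 the medians of days 6, 9, 12 and 16 were 1.71, 1.39, 1.16 and 0.65. Rab25 (2.25), Esrp1 (1.97), Grhl2 (1.92), Elf3 (1.22), Ovol2 (1.18) and Grhl3 (1.02) were at least 2-fold higher in D12S+, beside 4.79% of kept genes. Ehf was the single regulator that was lower in D12S+, at -0.41.

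On day 16 the regulators were split. Esrp1 (2.41), Grhl2 (2.02) and Rab25 (1.43) were at least 2-fold higher in D16S+, beside 11.8% of kept genes. Ehf (-1.15) was at least 2-fold lower, beside 15.2% of kept genes, and Ovol1 (-0.39), Esrp2 (-0.29) and Spint1 (-0.13) were lower by less. Within each of the 4 days the intervals of every regulator overlapped between the fractions.

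Across days, the Thy-1- or SSEA-1+ fraction was the higher one on 4 of 4 days for 6 regulators (Grhl2, Grhl3, Ovol2, Elf3, Esrp1 and Rab25), beside 23.2% of kept genes. Rab25 alone of the 10 was at least 2-fold higher on 4 of 4 days, a pattern of 16 kept genes or 0.113%. The difference of Grhl2 was 0.13, 0.88, 1.92 and 2.02 on days 6, 9, 12 and 16, and that of Esrp1 was 0.51, 1.54, 1.97 and 2.41. The growth over days rests partly on the added 1 FPKM, since with a pseudocount of 0.1 Grhl2 gave 0.66, 1.92, 2.57 and 2.40, and the plain ratios of Esrp1 were 5.11, 4.73, 4.68 and 6.15. Spint1 went the other way, with 1.72, 0.76, 0.27 and -0.13, as did Esrp2 with 1.77, 0.94, 0.57 and -0.29.

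**Figure D4:**
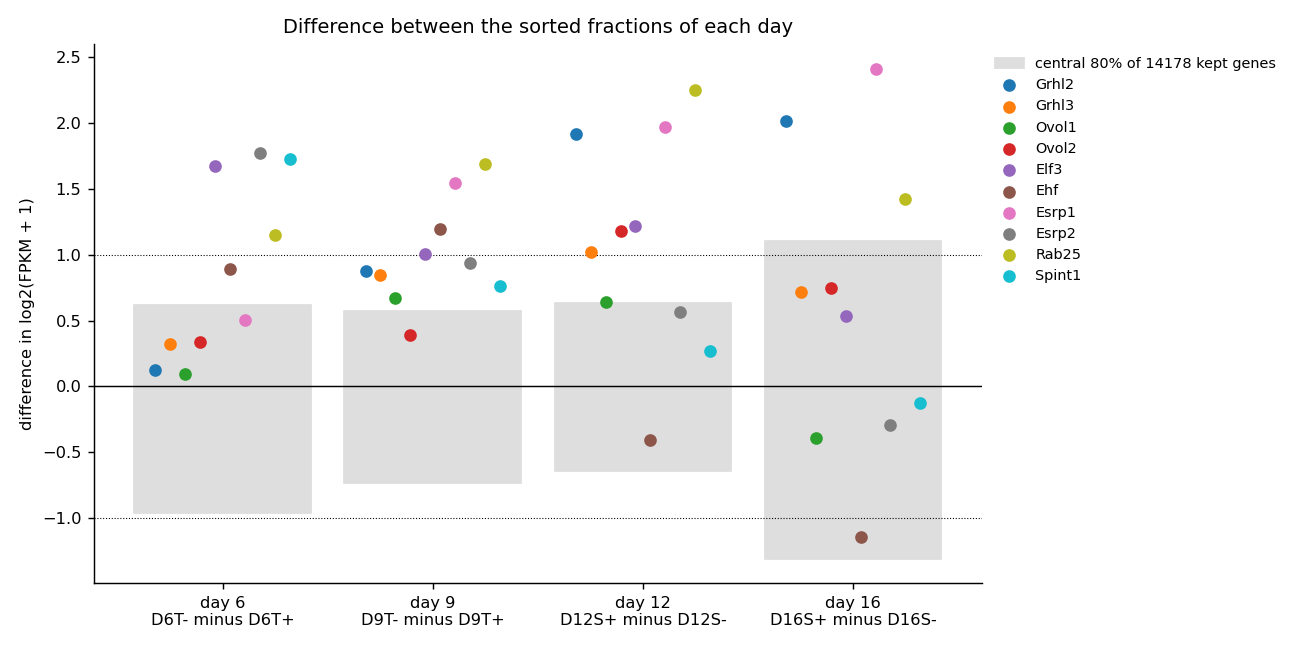
Difference in log2(FPKM + 1) between the 2 sorted fractions of each day (y axis; D6T- minus D6T+, D9T- minus D9T+, D12S+ minus D12S- and D16S+ minus D16S-) for the 10 regulators, 1 library per fraction. Grey boxes hold the central 80% of all kept genes and dotted lines mark 2-fold. Rab25 lies above the upper dotted line on each day, and the points spread from -1.15 (Ehf) to 2.41 (Esrp1) on day 16.

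Markers of other cell types moved with the fractions and are given beside this result. The 8 fibroblast markers summed to 2029 FPKM in D6T- and 5842 in D6T+, to 2116 in D9T- and 5053 in D9T+, to 1404 in D12S+ and 3129 in D12S-, and to 416 in D16S+ and 2948 in D16S-. The 8 pluripotency markers summed to 4783 FPKM in D16S+ and 142 in D16S-. The 8 trophoblast markers summed to 166 FPKM in D16S+ and 221 in D16S-, where 7 of the 8 exceeded 1 FPKM. Of the 8, 6 were lower in D16S+, 3 of them at least 2-fold, beside 15.2% of kept genes. The other 2, Tfap2c and Eomes, were at least 2-fold higher there, beside 11.8%. Tfap2c, also listed below as an epithelial factor, was at 65.7 FPKM in D16S+ and 19.2 in D16S-. In the same libraries Krt7 was at 76.8 and 161 FPKM, Hand1 at 10.7 and 24.2 and Cdx2 at 0.35 and 0.391. The 8 epidermal markers summed to 225 FPKM in D16S+ and 343 in D16S-, of which Sfn gave 176 and 194 FPKM. All 8, of which 6 were among the kept genes, were lower in D16S+. At least 2-fold lower were 5 of them, beside 15.2% of kept genes. Krt14 was at 8.24 FPKM in D16S+ and 39.9 in D16S-, and Krt5 at 0.312 and 1.64 FPKM. The epidermal sums ranged from 16.0 FPKM in D0 to 343 over the 12 libraries. Sums over the 12 libraries ranged from 10.6 to 72.4 FPKM for the 8 primitive endoderm markers. They ranged from 9.52 to 66.8 FPKM for the 6 endothelial markers, with Pecam1, which pluripotent cells also express, at the upper end. For the 8 leukocyte markers they ranged from 23.6 to 195 FPKM, with the highest sum in D16S-. There Cd68 was at 115, Laptm5 at 57.3 and Csf1r at 19.9 FPKM, but Lyz2 was at 0.509 and Ptprc at 0.027 FPKM. Csf1r was at 6.63 FPKM in D16S+. Of these 8 markers, 3 exceeded 1 FPKM in D16S-. The part of other cell types in the levels of Ovol1 and Ehf in D16S- was not tested.

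Several regulators stood higher in a sorted fraction than at the pluripotent end points. The highest FPKM was in a sorted fraction of days 6 to 16 for 7 of the 10, beside 41.1% of kept genes: in D12S+ for Elf3, Esrp2 and Rab25, in D16S+ for Grhl2 and Esrp1, in D9T- for Ehf and in D16S- for Ovol1. For Grhl2 and Esrp2 that highest value was only 1.001 and 1.072 times the value in iPSCs. For Elf3 it was 108 FPKM, against 91.7 FPKM in mESCs. Against D16S+, iPSCs were at least 2-fold lower in Rab25 (-2.36) and Esrp1 (-1.58), beside 7.77% of kept genes. The intervals of every regulator overlapped between D16S+ and iPSCs. Grhl3 (-0.99) and Ovol1 (-0.90) fell just short of 2-fold, and with every library at the same total 4 regulators passed. That scaling also moved the share of higher genes among those past 2-fold between these libraries from 36.1% to 23.0%.

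The pluripotent lines differed from each other in 4 of the 10. Esrp2 (1.77), Grhl2 (1.67) and Esrp1 (1.32) were at least 2-fold higher in iPSCs than in mESCs, beside 6.79% of kept genes. Grhl3 was at least 2-fold lower, at -1.38, beside 7.41%. Elf3 and Spint1 differed by -0.26 and -0.21. The 8 trophoblast markers summed to 184 FPKM in iPSCs and 39.4 in mESCs, of which Krt7 alone gave 133 and 5.22 FPKM. Of the 8 markers, 6 were higher in iPSCs, 5 of them at least 2-fold. The other 2, Tfap2c and Eomes, were lower in iPSCs, by less than 2-fold. The part of these markers in the differences of the regulators between iPSCs and mESCs was not tested.

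Zeb and Snail factors are the repressors that oppose this group in the textbook circuit, and as a list they were lower at the end of both routes. From D0 to D16S+ all 8 mesenchymal transcription factors were at least 2-fold lower, with a median of -3.40, beside 20.9% of kept genes. Zeb1 went from 13.6 to 1.39 FPKM, Zeb2 from 4.77 to 0.286, Snai1 from 57.5 to 4.52 and Snai2 from 10.5 to 0.098. In D16S- the levels were 5.39 FPKM for Zeb1, 3.73 for Zeb2, 21.3 for Snai1 and 0.419 for Snai2, and 6 of the 8 were at least 2-fold below D0, beside 11.4% of kept genes. Zeb1, Zeb2 and Snai1 thus stood at higher levels in D16S- than in D16S+, while Elf3 and Spint1 were at 56.6 and 54.1 FPKM in the same D16S- library. For Snai1 this was not particular to D16S-, since it was at 19.2 FPKM in iPSCs and 7.33 in mESCs. Zeb1 and Zeb2 were at 1.54 and 0.471 FPKM in iPSCs. Twist1 and Twist2 were at 1.93 and 2.06 FPKM in D16S+ and at 14.01 and 48.4 FPKM in D16S-, from 39.8 and 435 FPKM in D0.

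Of 24 epithelial effector genes, which encode junction proteins, keratins and polarity proteins, 23 were at least 2-fold higher in D16S+ than in D0, with a median of 4.40, against the 20.0% of kept genes given above. Cdh1, which encodes E-cadherin, was at 0.15 FPKM in D0, 3.41 in D3, 6.05 in D6T-, 25.8 in D9T-, 85.8 in D12S+, 129.9 in D16S+, 44.6 in D16S- and 203 in iPSCs. Epcam, an adhesion molecule, was at 0.528 FPKM in D0, 13.4 in D6T-, 171 in D12S+, 150.3 in D16S+, 74.6 in D16S- and 79.3 in iPSCs. Cldn6, a claudin of tight junctions, differed most, from a listed 0 in D0 to 138 FPKM in D16S+, and Mal2 least, at 0.017 and 0.336 FPKM. The median level of this list on the log2 scale was 5.30 in D16S+ and 5.03 in D16S-, against 3.95 and 3.07 for the 10 regulators.

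**Figure D5:**
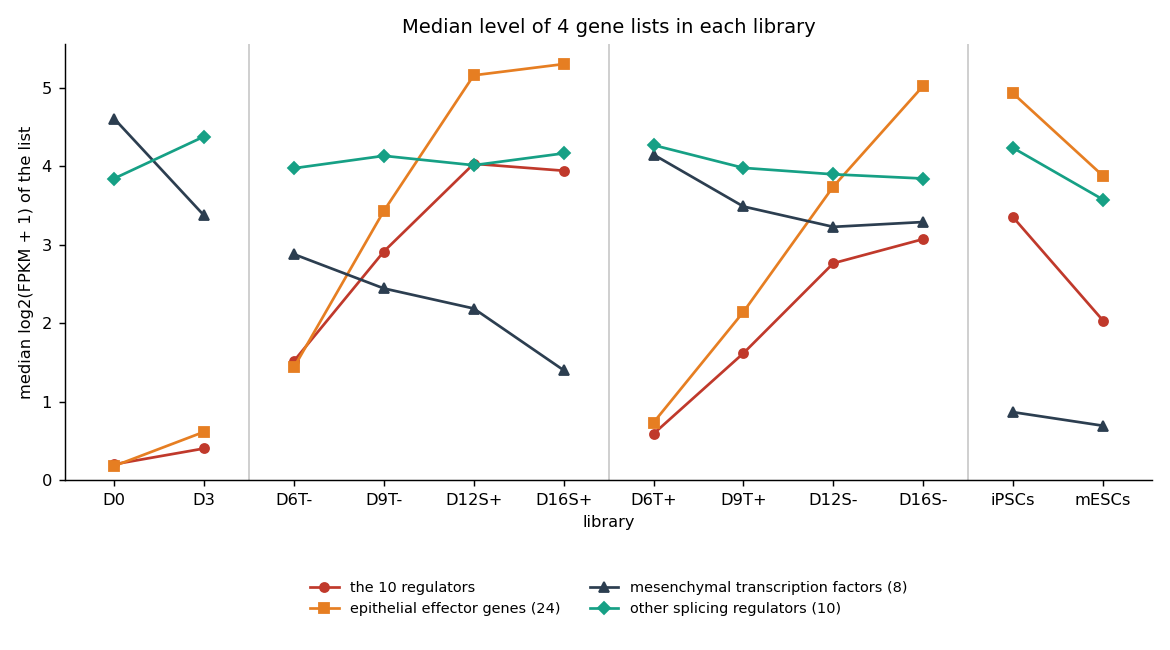
Median log2(FPKM + 1) of 4 gene lists (y axis) in the 12 libraries (x axis, 1 library each). Grey lines part the unsorted libraries, the 2 routes and the end points. The median of the 8 mesenchymal factors is 4.61 in D0 and 1.40 in D16S+ but 3.29 in D16S-, whereas the effector genes reach 5.30 and 5.03.

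Among 8 other epithelial transcription factors, of which 6 were among the kept genes, 3 were at least 2-fold higher in D16S+ than in D0 and none was 2-fold lower, beside the same 20.0% and 20.9% of kept genes. Tfap2c, a factor of trophoblast, germ cells and surface ectoderm, went from 0.477 FPKM in D0 to 65.7 in D16S+ and 19.2 in D16S-. Trp63, the master regulator of stratified epithelia, was below 1 FPKM in all 12 libraries, at 0.568 FPKM in D0 and 0.019 in D16S+.

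How alike the regulators were to each other was described by Pearson's r of log2(FPKM + 1) over the 12 libraries, which share days, sorting and 1 normalisation. Of 45 pairs, 6 had r above 0.9 and 2 were below 0, with a median of 0.72. The closest pairs were Grhl2 with Ovol2 (0.98) and Elf3 with Spint1 (0.97), neither of them paralogs. Esrp1 was near Grhl2 (0.94) and Rab25 (0.93). Ehf stood apart, with a median r of 0.25 to the others and its lowest r, -0.14, to Grhl2, and without it the median over pairs was 0.79.

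Each regulator was also set against the 10805 genes with at least 5 FPKM in some library. Likeness here is by the same r, which takes no account of the size of a change. Those most like Grhl2 were Ctbp2 (r = 0.99), which encodes a corepressor, Nodal (0.99), a ligand of the pluripotent epiblast, and Mta3 (0.98), and Ovol2 was nearest to Nodal (0.99), Trim71 (0.99) and Hic2 (0.99). Elf3 was nearest to Spint2 (0.99), Ptprf (0.98) and Epcam (0.98), and Spint1 to Grtp1 (0.98), Wfdc2 (0.97) and Fcho1 (0.97). Grhl3 was nearest to Kazn (0.98), Pim3 (0.98) and Smagp (0.96). Ctbp2 was at 26.8 FPKM in D0 and 98.7 in D16S+, and Mta3 at 37.4 and 184, so both were expressed in D0, unlike Grhl2. Nodal was at 0.094 FPKM in D0, 47.7 in D16S+, 5.36 in D16S- and 67.4 in iPSCs, so this shared neighbour of Grhl2 and Ovol2 also differed between the day 16 fractions.

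Ovol1 was nearest to Prl2a1 (0.98), Plet1 (0.95) and 1600025M17Rik (0.94), of which Prl2a1 belongs to the placental prolactin family and Plet1 is expressed in trophoblast. Prl2a1 was at 10.5 FPKM in D16S-, 7.14 in D16S+, 1.70 in iPSCs and listed at 0 in D0 and mESCs. Ehf was nearest to Dusp11 (0.96), Gcnt3 (0.95) and Irak3 (0.94), and Irak3, an inhibitor of Toll-like receptor signalling, was at 1.90 FPKM in D0, 39.5 in D9T-, 10.4 in D16S+ and 4.72 in iPSCs. Esrp1 was nearest to Adap2 (0.98), Zic5 (0.98) and Ubxn7 (0.98), and Rab25 to Pik3c3 (0.97), Wbscr27 (0.96) and Ccdc28a (0.96). Esrp2 had the fewest close matches, with 2 genes at r of at least 0.9, Tead4 (0.94) and AW209491 (0.93), and Paxbp1 (0.90 when rounded) as the third, whereas Ovol2 had 351.

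Of the 20 genes next to the regulators in the table, 3 were at least 2-fold higher in D16S+ than in D0, and the median over the 20 was 0.08. The share of genes passing was 20.0% of kept genes and 11.8% of all 24098. The 20 neighbours were not filtered by level, and some were listed at or near 0. Mgme1, a mitochondrial exonuclease gene 23.9 kb from Ovol2, was at 4.61 FPKM in D0, 17.3 in D16S+, 4.59 in D16S- and 18.6 in iPSCs. On either side of Spint1, Ppp1r14d (7.5 kb) was listed at 0 in D0 and stood at 22.03 FPKM in D9T-, 1.71 in D16S+ and 0.498 in iPSCs, and Rhov (19.7 kb) at 0.061, 0.840, 5.52 and 3.01 FPKM in the same libraries. Ppp1r14d was also at 18.1 FPKM in both D12S- and mESCs, so it was low in D16S+ and iPSCs but not in every late library.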

How the data were processed

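PolyA RNA was sequenced in 12 mouse libraries, 1 per condition, grouped by title. Table columns were matched by day and by "pos" or "neg", read as the sign of the sorting marker. The authors prepared TruSeq libraries (a stranded kit per the labels), mapped reads to mm9 with STAR, removed reads with more than 2 mismatches or more than 1 locus, and deposited FPKM from cuffdiff with the lower and upper end of each interval. Tool versions, annotation and library scaling are not given in the sources used here. Size factors by the median of ratios were 1.00 to 1.02, so the deposited values were already close to that scaling. Removal of multi-locus reads lowers genes with near-identical copies. A further 12 status columns were not used. Absolute depth is unknown, since FPKM carries no totals, so no counting error is given.

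Values were analysed as log2(FPKM + 1) with Python 3.11.15 and pandas 2.3.3, and the functions were tested on simulated data. Genes with at least 1 FPKM in some library (14178 of 24098) formed the background. The members and all gene lists were chosen with earlier results of these data known, so no list is independent evidence. Named genes were drawn from the 10 regulators, always-named partners and antagonists, the largest rise and fall of each list from D0 to D16S+, the 3 genes most like each regulator, and neighbours that moved 2-fold with it. Hand1, Eomes, Krt14, Krt5, Cd68, Csf1r, Ptprc, Ovol3 and 1810019D21Rik were named after their values were seen. A pseudocount of 0.1, a fold of 4, an expression level of 5 FPKM, no filter on low values and 2 scalings were tried as alternatives. Positions are from GENCODE M1 on mm9, 1-based, and promoters from RefSeq on GRCm38.p6. Both builds were kept apart.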

Additional observations from a re-analysis of the deposited data

Results flagged for a closer look

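The difference between the sorted fractions of a day changed sign between days for 4 regulators. On the log2(FPKM + 1) scale, Ehf ranged over 2.35, from 1.20 on day 9 to -1.15 on day 16. Esrp2 ranged over 2.06, from 1.77 on day 6 to -0.29 on day 16. Spint1 ranged over 1.85, from 1.72 on day 6 to -0.13 on day 16. Ovol1 ranged over 1.06, from 0.67 on day 9 to -0.39 on day 16. These changes of sign were not tested, because each fraction is 1 library, and the sorting marker was Thy-1 on days 6 and 9 and SSEA-1 on days 12 and 16.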

How the results depend on the processing

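Of 102 recomputed counts and medians of the 10 regulators, 86 stayed within the margin of 1.5 times, 16 moved and 0 reversed. With a pseudocount of 0.1, the median differences were 4.73 from D0 to iPSCs, 5.26 to D16S+, 4.83 to D16S- and 1.71 between D6T- and D6T+, and the counts past 2-fold were 7 in D6T-, 7 in D9T- and 5 lower in iPSCs than in D16S+. With a 4-fold threshold, 0 regulators passed on day 6, 0 on day 9, 1 on day 12, 0 as lower in D16S+ than in D16S-, 1 as lower in iPSCs than in D16S+, and 0 in either direction between iPSCs and mESCs. At the same total FPKM, 4 were lower in iPSCs than in D16S+. With expression set at 5 FPKM, 3 regulators were on by D6T-. Of 270 differences of single regulators, 40 moved, all of them with the pseudocount of 0.1, and 0 reversed; size factors by the median of ratios (1.00 to 1.02) moved none. Without the filter on low values all 18 background shares moved, as the genes tested went from 14178 to 24098. Absolute depth is unknown, so the fragments behind levels below 1 FPKM cannot be given, and with 1 library per condition no replicate could be left out.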
